A study of Mus musculus with 6 samples.

Results

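The *Dlx* and *Msx* genes encode homeodomain transcription factors, and 8 of the 26437 genes in the deposited table were chosen by name, which are *Dlx1*, *Dlx2*, *Dlx3*, *Dlx4*, *Dlx5*, *Dlx6*, *Msx1* and *Msx2*. All 8 passed the filter on low values and were tested. RNA-seq was performed on facial tissue of mouse embryos at E10, cut so that it held the early eyes on both sides together with the neighboring tissue of the face. The 6 libraries comprise 3 wild-type (WT) and 3 *Rdh10*-/- (*Rdh10* KO) libraries, and every library was made from 3 pooled embryos, which gives 9 embryos per group. *Rdh10* KO embryos are homozygous for the mutant allele in every tissue and came from matings of heterozygous mice on a mixed outbred Black Swiss and C57BL/6 background, and no embryo received a treatment. *Rdh10* encodes the retinol dehydrogenase that starts the conversion of retinol to retinoic acid (RA), and the comparison asks which of these genes differ in level when this step is lost.

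*Dlx* genes are vertebrate counterparts of the fly gene *Distal-less* and lie in the genome as pairs that face each other and share enhancers. In the embryo they act in cranial neural crest, where nested *Dlx* expression patterns the upper and lower jaw, in the forebrain, where *Dlx1* and *Dlx2* drive the formation of inhibitory neurons, and in the olfactory and otic placodes. *Msx* genes are related to the fly muscle segment homeobox gene, are induced by BMP signaling, and act as transcriptional repressors in craniofacial mesenchyme, tooth germs, limb buds and the dorsal neural tube.

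The homeobox is the part of each gene that encodes the DNA-binding homeodomain, and the stretch of codons 42 to 58, which covers most of its recognition helix, is shown because it shows how closely the members resemble each other in coding sequence. In these 51 bp, 29 positions were identical in all 8 genes, and capitals mark the other 22. The stretches of 7 members are given. Sequences are from GENCODE mouse release 21 transcripts on GRCm38 (mm10), in the direction of transcription.
Dlx1: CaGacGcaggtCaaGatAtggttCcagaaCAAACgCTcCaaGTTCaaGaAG
Dlx2: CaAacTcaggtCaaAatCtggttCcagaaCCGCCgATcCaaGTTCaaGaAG
Dlx3: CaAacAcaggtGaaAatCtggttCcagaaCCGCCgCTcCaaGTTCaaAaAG
Dlx4: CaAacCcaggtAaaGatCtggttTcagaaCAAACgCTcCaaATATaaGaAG
Dlx5: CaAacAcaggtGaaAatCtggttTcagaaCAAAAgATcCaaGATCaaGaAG
Dlx6: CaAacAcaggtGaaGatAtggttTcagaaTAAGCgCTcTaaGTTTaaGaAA
Msx2: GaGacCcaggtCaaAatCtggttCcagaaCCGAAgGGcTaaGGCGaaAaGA
The *Dlx1* and *Dlx2* stretches lie at chr2:71531148-71532305 on the plus strand and chr2:71544883-71545392 on the minus strand. Those of *Dlx3* and *Dlx4* lie at chr11:95121890-95123450 (plus) and chr11:95141428-95141797 (minus), and those of *Dlx5* and *Dlx6* at chr6:6878447-6879534 (minus) and chr6:6865263-6867082 (plus). In all 6 *Dlx* genes the stretch runs from exon 2 into exon 3 and these coordinates span the intron between them. The *Msx2* stretch at chr13:53468376-53468426, on the minus strand, lies within exon 2. Over the whole homeobox of 180 bp, *Msx1* and *Msx2* were identical at 82.2% of positions, pairs of *Dlx* genes at 66.1% to 81.7%, and pairs of a *Dlx* with an *Msx* gene at 54.4% to 65%. The longest run of bases that any pair of members shared anywhere in their transcripts was 44 bases, a repeat of 2 bases found in *Dlx6* and *Msx2*, and among the other pairs it was 10 to 26 bases.

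The deposited values are normalized counts, obtained by dividing the reads of a gene by the size factor of the library, although the study names FPKM as its normalization. The libraries held 16392777 to 27101025 reads on genes, and the limit set by 3 reads was 2.15 to 3.53 normalized counts. Pairs of WT libraries differed by 2.83 to 6.003 chi-square units per degree of freedom and pairs of *Rdh10* KO libraries by 13.5 to 19.0, both more than sampling noise. *Rdh10* KO replicate 1 stood apart from the other *Rdh10* KO libraries in some genes of the optic vesicle and forebrain, with *Lhx2*, a LIM homeobox gene of the eye field, at 632 normalized counts against 1226 and 1257. *Rdh10* itself had 342 to 399 normalized counts in the WT libraries and 142 to 183 in the *Rdh10* KO libraries, 45.1% of the WT mean, and the values do not show whether the remaining reads lie outside the mutated part of the gene. Fold changes below are differences of the mean log2(normalized counts + 0.1), *Rdh10* KO minus WT, tested with limma over 22921 genes with Benjamini–Hochberg adjustment, and “decreased” and “increased” refer to genes whose adjusted p-value was below 0.05.

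Loss of *Rdh10* was accompanied by a decrease of *Msx1* and an increase of *Dlx2*. Of the 8 genes, 1 decreased, against a background of 9.12% of all tested genes that decreased, and 1 increased, against 10.3%. The other 6 did not pass the test, and all 6 had positive log2 fold changes. The median log2 fold change of the 8 members was 0.25, and that of all tested genes was 0.0036. None of the 8 passed both the test and the study's cut-off of 0.85 on the log2 scale, which 3.29% of all genes passed in either direction. The 0 past the cut-off was also found with edgeR, DESeq2 and all other alternatives. Without the cut-off, 3 members had an unadjusted p-value under 0.05, *Msx1*, *Dlx2* and *Dlx5*, as did 30.7% of all genes. *Rdh10* KO values lay all below the WT values for 1 member, against 17% of all genes, and all above them for 3 members, against 17.6% of all genes.

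**Figure D1:**
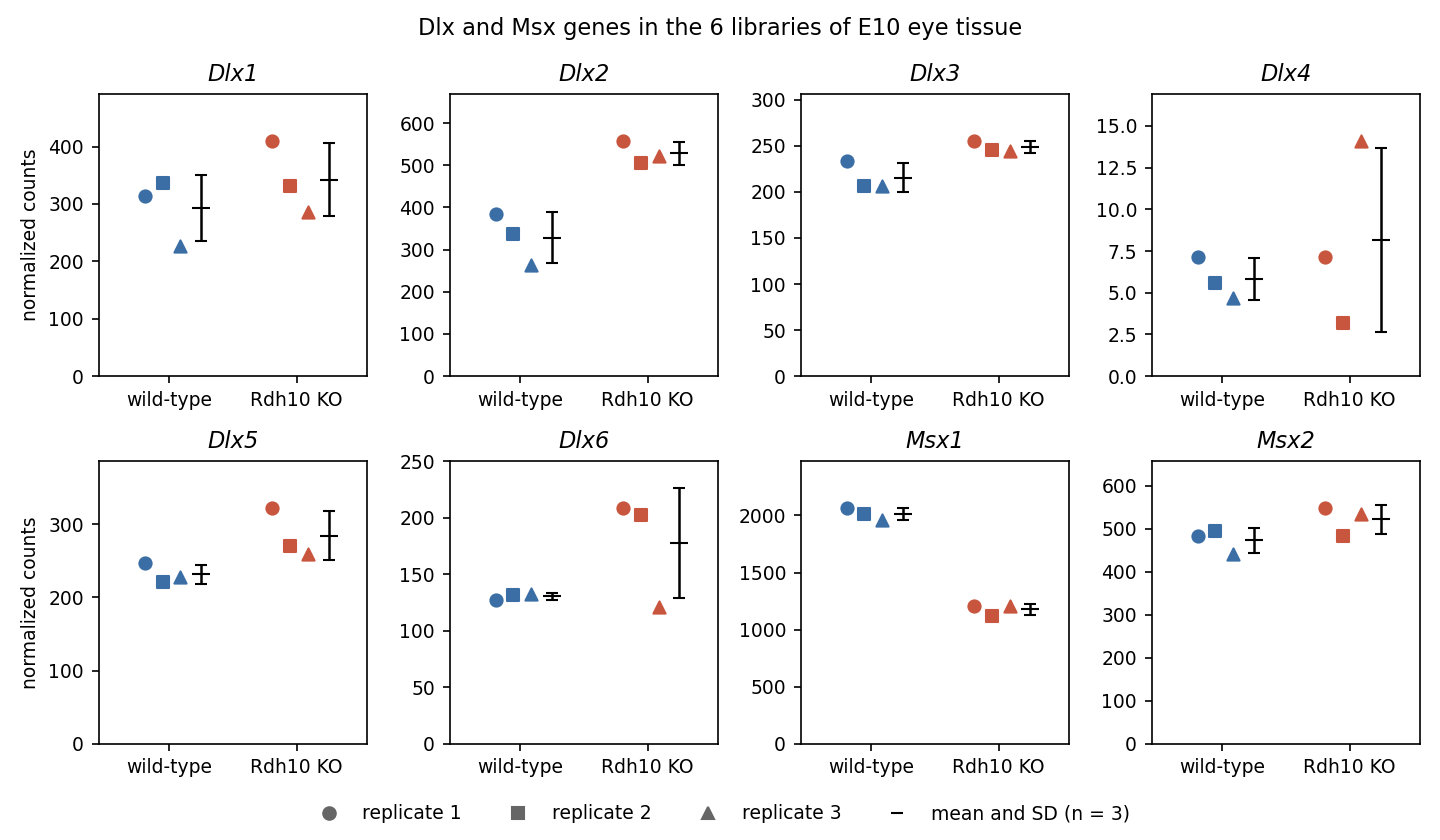
Normalized counts (vertical axes, each from 0) of the 8 *Dlx* and *Msx* genes in the 3 WT and 3 *Rdh10* KO libraries; symbols mark replicates, and bars give the mean and SD of each group (n = 3). *Msx1* is lower in every *Rdh10* KO library than in any WT library, *Dlx2*, *Dlx3* and *Dlx5* are higher, and the groups overlap for the other 4 genes.

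*Msx1* (chromosome 5, positions 37820485 to 37824583, minus strand), a repressor required for growth of the palate and teeth, was the most abundant member. It had 2064, 2013 and 1958 normalized counts in the WT libraries and 1210, 1120 and 1204 in the *Rdh10* KO ones. All 3 *Rdh10* KO libraries lay far below the lowest WT library, and the spread within each group was small beside the gap. The mean fell from 2012 ± 53.4 to 1178 ± 50.2 (SD, n = 3 each), to 58.6% of WT, a log2 fold change of -0.77 (SE 0.072, 95% interval -0.93 to -0.62, limma adjusted p = 1.32e-05). Among the 15272 genes with a mean of at least 10 normalized counts, *Msx1* ranked 412 from the lowest log2 fold change. In pooled tissue, fewer cells that express a gene and less RNA per cell cannot be told apart.

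*Msx2* (chromosome 13, positions 53466884 to 53473074, minus strand), its closest relative here and a factor in skull growth, did not pass the test. It had 482, 495 and 441 normalized counts in the WT libraries and 548, 483 and 534 in the *Rdh10* KO ones. *Rdh10* KO replicate 2 lay between WT replicates 1 and 2, so the groups overlapped. The log2 fold change was 0.14 (95% interval -0.07 to 0.35, limma adjusted p = 0.362), an interval that leaves out the value for *Msx1*. The difference between *Msx1* and *Msx2* was examined as their ratio within each library. The *Msx1* to *Msx2* ratio was 4.28, 4.07 and 4.44 in the WT libraries and 2.21, 2.32 and 2.25 in the *Rdh10* KO ones. The groups did not overlap, with a difference of -0.91 on the log2 scale and an exact two-sided permutation p of 0.1, the smallest that 3 libraries against 3 allow, and 0.15 after adjustment over the 3 ratios examined. *Msx1* supplied 81.0% ± 0.68 (SD, n = 3) of the summed *Msx1* and *Msx2* counts in WT and 69.3% ± 0.51 in *Rdh10* KO. The sum itself was 2484 ± 76.7 normalized counts in WT and 1700 ± 84.0 in *Rdh10* KO, 68.4% of WT.

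*Dlx2* (chromosome 2, positions 71543408 to 71546754, minus strand) and *Dlx1* (positions 71528113 to 71533981, plus strand) are neighbors that act together in the upper jaw and forebrain. *Dlx2* had 384, 337 and 263 normalized counts in the WT libraries and 558.5, 505 and 521 in the *Rdh10* KO ones. Every *Rdh10* KO library was above every WT library, and the WT libraries were the more scattered. The mean rose from 328 ± 60.7 to 528 ± 27.6 (SD, n = 3 each), and the fitted fold was 1.63 with a 95% interval of 1.34 to 1.97 (log2 fold change 0.70, SE 0.13, limma adjusted p = 0.00182). Among the 15272 genes it ranked 1053 from the highest. The call of *Dlx2* was lost without WT replicate 2 (log2 fold change 0.73, limma adjusted p = 0.0583) and in limma without the intensity trend (limma adjusted p = 0.0866).

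*Dlx1* had 314, 337 and 228 normalized counts in the WT libraries and 410, 331 and 286 in the *Rdh10* KO ones. In both groups replicate 3 was the lowest, and the groups overlapped. The log2 fold change of *Dlx1* was 0.23 (95% interval -0.12 to 0.58, limma adjusted p = 0.376), an interval that overlaps that of *Dlx2*. The *Dlx2* to *Dlx1* ratio was 1.22, 1 and 1.16 in the WT libraries and 1.36, 1.53 and 1.82 in the *Rdh10* KO ones. The ratio was higher in every *Rdh10* KO library, by 0.47 on the log2 scale, with an exact two-sided permutation p of 0.1 and 0.15 after adjustment. The antisense gene *Dlx1as* spans the *Dlx1* locus and had at most 9.41 normalized counts in any library.

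**Figure D2:**
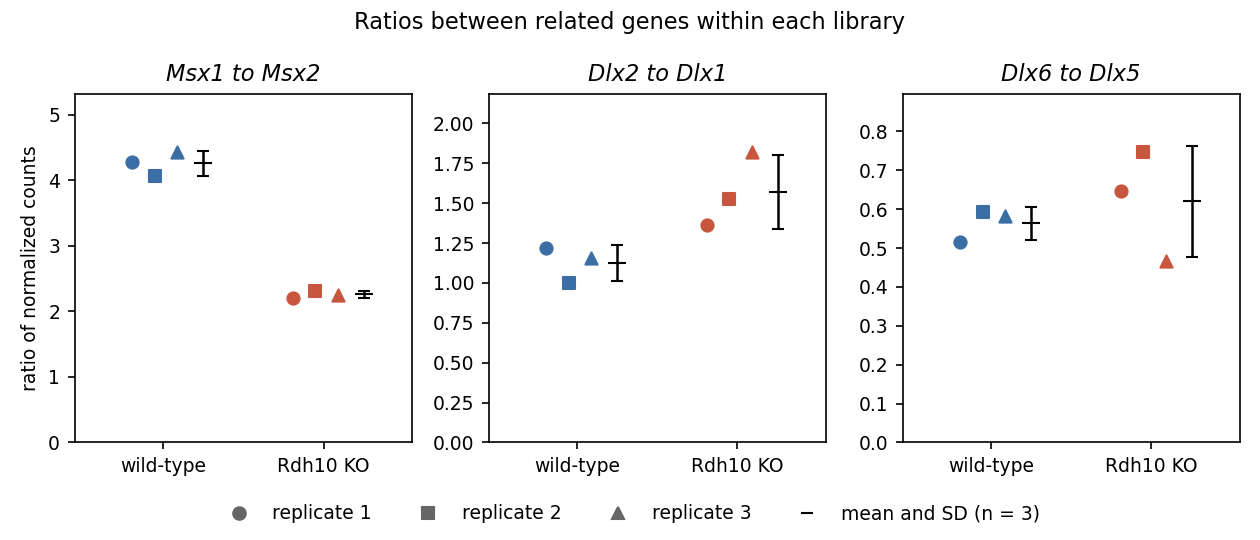
Ratios of normalized counts (vertical axes, each from 0) between related genes within each of the 3 WT and 3 *Rdh10* KO libraries; symbols mark replicates, and bars give the mean and SD (n = 3). The *Msx1* to *Msx2* ratio goes from 4.07 to 4.44 in WT down to 2.21 to 2.32 in *Rdh10* KO, the *Dlx2* to *Dlx1* ratio is higher in all 3 *Rdh10* KO libraries, and the *Dlx6* to *Dlx5* ratio overlaps.

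*Dlx5* (chromosome 6, positions 6877805 to 6882085, minus strand) and *Dlx6* (positions 6863334 to 6868568, plus strand) specify the lower jaw in the first pharyngeal arch and are also used in the olfactory placode. *Dlx5* had 247, 221 and 228 normalized counts in the WT libraries and 322, 271 and 260.0 in the *Rdh10* KO ones. The groups did not overlap, but the lowest *Rdh10* KO library lay close to the highest WT library. The log2 fold change was 0.29 (95% interval 0.02 to 0.56), with an unadjusted p of 0.0362 and an adjusted p of 0.130 in limma, so *Dlx5* did not pass the test. *Dlx6* had 127, 131 and 133 normalized counts in the WT libraries and 208, 203 and 121 in the *Rdh10* KO ones. The first 2 of these *Rdh10* KO libraries were high and the third was below all WT libraries, and the log2 fold change was 0.40 (95% interval -0.01 to 0.82, limma adjusted p = 0.178). Without *Rdh10* KO replicate 3, it was 0.66 and passed the test (limma adjusted p = 0.0218). The *Dlx6* to *Dlx5* ratio was 0.515, 0.593 and 0.583 in the WT libraries and 0.647, 0.748 and 0.466 in the *Rdh10* KO ones, with overlapping groups (exact two-sided permutation p = 0.6, also after adjustment).

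*Dlx3* (chromosome 11, positions 95120119 to 95125296, plus strand), which acts in surface ectoderm and its derivatives, had 233, 206 and 207 normalized counts in the WT libraries and 256, 245 and 245 in the *Rdh10* KO ones. All 3 *Rdh10* KO values were higher than all WT values, and the gap between the groups was smaller than the distance from WT replicate 1 to the other WT libraries. The log2 fold change was 0.21 (95% interval -0.05 to 0.47, limma adjusted p = 0.269). *Dlx4* (positions 95140447 to 95146263, minus strand), its neighbor, was near the limit of detection, with 7.16, 5.56 and 4.70 normalized counts in the WT libraries and 7.16, 3.20 and 14.1 in the *Rdh10* KO ones. These rest on 3 to 12 reads per library, and the 95% interval of -1.20 to 1.73 on the log2 scale shows that a change was not detectable at this depth. Summed over the 6 *Dlx* genes, the level was 1204 ± 128 normalized counts in WT and 1589 ± 160 in *Rdh10* KO (SD, n = 3 each), 132% of WT, and *Dlx2* made up 27.1% and 33.4% of the sum.

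**Figure D3:**
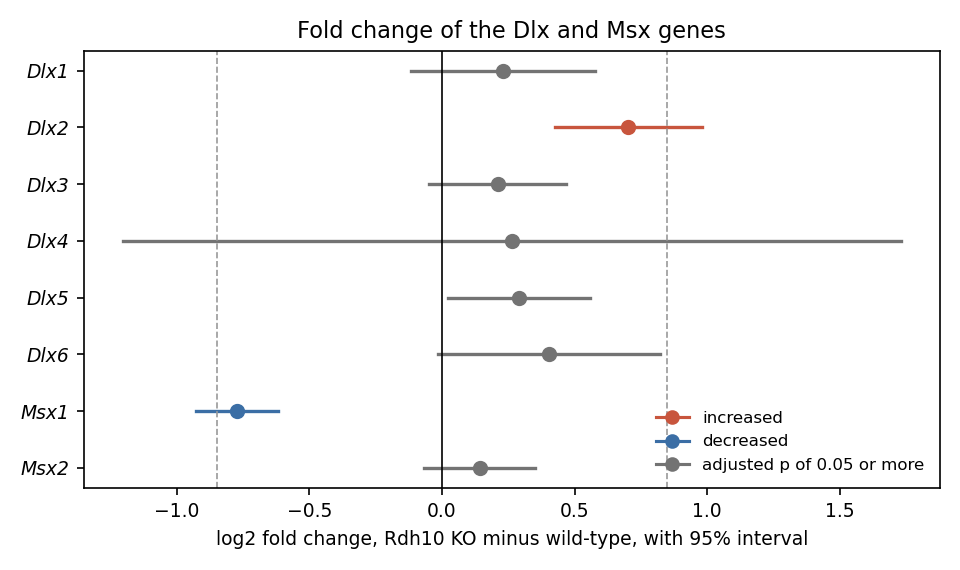
Log2 fold changes (horizontal axis, *Rdh10* KO minus WT) of the 8 genes, with bars for the 95% interval from limma and dashed lines at 0.85 on either side of 0. *Msx1* at -0.77 and *Dlx2* at 0.70 are the members that passed the test, and *Dlx4*, with 3 to 12 reads per library, has the widest bar.

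Levels can be compared between genes only per length of transcript. As FPKM computed here from the recovered reads and annotated exon lengths, the WT levels were 33.2 ± 0.91 for *Msx1*, 7.37 ± 0.43 for *Msx2*, 5.87 ± 1.09 for *Dlx2*, 5.24 ± 0.31 for *Dlx5* and 4.22 ± 0.31 for *Dlx3* (SD, n = 3). *Dlx6* had 2.80 ± 0.061 FPKM, *Dlx1* 2.77 ± 0.545 and *Dlx4* 0.0908 ± 0.020. In this order, the WT ranges of *Msx2* and *Dlx2*, of *Dlx2* and *Dlx5*, and of *Dlx6* and *Dlx1* overlapped, and the other neighbors did not. In *Rdh10* KO, *Msx1* had 19.5 ± 1.06 FPKM and *Dlx2* came next with 9.50 ± 0.57, with all its libraries above those of *Msx2* (8.17 ± 0.62). The ranges overlapped for *Dlx6* (3.83 ± 1.03) and *Dlx1* (3.26 ± 0.60), and *Dlx5* (6.45 ± 0.77), *Dlx3* (4.90 ± 0.15) and *Dlx4* (0.129 ± 0.088) kept their places. The exon length of *Dlx1*, 5396 bp, counts the introns kept in some annotated transcripts, which lowers its FPKM.

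The sequences just upstream of *Dlx2* and *Msx1* are shown because these are the members that passed the test. They are the 250 bases before the RefSeq start on GRCm38.p6, at chr2:71546755-71547004 for *Dlx2* and chr5:37824586-37824835 for *Msx1*, both on the minus strand, written in the direction of transcription. Capitals mark matches on either strand to the CCAAT box (CCAAT) and the GC box (GGGCGG), which did not overlap each other.
Dlx2 upstream: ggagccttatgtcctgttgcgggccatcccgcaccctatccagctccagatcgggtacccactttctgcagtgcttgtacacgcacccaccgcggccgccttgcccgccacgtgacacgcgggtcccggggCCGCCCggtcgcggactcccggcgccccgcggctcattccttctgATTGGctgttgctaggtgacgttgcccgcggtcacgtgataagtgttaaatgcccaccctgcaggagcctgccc
Msx1 upstream: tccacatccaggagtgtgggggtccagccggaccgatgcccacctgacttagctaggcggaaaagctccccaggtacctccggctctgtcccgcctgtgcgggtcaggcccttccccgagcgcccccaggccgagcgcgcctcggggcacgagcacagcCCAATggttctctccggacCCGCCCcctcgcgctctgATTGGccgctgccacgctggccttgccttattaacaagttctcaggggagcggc
Promoter windows were found for 4 of the 8 members, *Dlx1*, *Dlx2*, *Msx1* and *Msx2*. *Msx1* has CCAAT letters starting 91 and 54 bases before its start, with GC box letters starting at 72, and *Dlx2* has them starting at 74 and at 119. *Msx2*, which did not pass the test, also holds both, at 124 and 160, so 3 of the 4 windows do. Of 32851 RefSeq windows, 33.8% hold CCAAT and 32.7% GGGCGG. Nuclear receptor half-site letters (AGGTCA or AGTTCA), found in 24.2% of windows, were in the window of *Dlx1* and not in those of the other 3. Other forms of the half-site were not searched, among them GGGTCA, whose letters occur in the *Msx1* window printed above. Homeodomain core letters (TAATTA or TAATTG), found in 11.2% of windows, were in that of *Msx2* alone, and TATAAA, found in 12.4%, was in none. A match of letters is a description and not a site of binding.

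The loci also hold antisense transcripts, which were examined together with the third mouse *Msx* gene. Of these 5 transcripts in the table, 4 were tested and 0 passed the test with limma, 1 of them (*Dlx4os*) having an unadjusted p under 0.05. DESeq2 also called 0, whereas both edgeR tests called *Dlx4os* decreased and *Msx3* increased. Among the limma alternatives, a pseudocount of 1 called *Dlx4os* decreased (limma adjusted p = 0.0193). Leaving out *Rdh10* KO replicate 3 called *Msx3* increased (limma adjusted p = 0.0287). *Dlx6os1*, an antisense RNA that overlaps *Dlx6*, had 77.9 to 119 normalized counts in WT and 83.5 to 120 in *Rdh10* KO (log2 fold change 0.13, limma adjusted p = 0.740), and *Dlx6os2* had at most 1 read in any library. *Dlx4os*, opposite *Dlx4*, had 14.3, 13.4 and 10.3 normalized counts in the WT libraries and 4.30, 4.27 and 0 in the *Rdh10* KO ones (limma adjusted p = 0.0706). The libraries were directional, but the source used here does not state whether the counting used strand, so reads of overlapping opposite transcripts may not be separated. *Msx3*, the related gene of the dorsal neural tube, had 31.7, 39.0 and 28.2 normalized counts in the WT libraries and 172, 85.3 and 20 in the *Rdh10* KO ones, which fell on both sides of WT. A list of 12 midbrain and dorsal neural tube genes was chosen after the values of *Msx3* were seen. In it, 1 gene decreased (*Pax7*) and 3 increased (*En1*, *Gdf7* and *Wnt1*), against 9.12% and 10.3% of all tested genes. Of these calls, that of *Gdf7* was lost without any 1 library (limma adjusted p = 0.0593 to 0.116), that of *En1* without any of 5, all but *Rdh10* KO replicate 3 (0.0590 to 0.112), and that of *Pax7* without WT replicate 1 or 2 (0.0691 to 0.0728). *Wnt1*, a signal of the dorsal midline, was at 105 to 148 normalized counts in WT and 231 to 269 in *Rdh10* KO. *Gdf7*, a roof plate signal, was at 14.3 to 18.9 and 31.8 to 51.6. Both were highest in *Rdh10* KO replicate 1, as was *Msx3*. The remaining genes of the list were also highest there, except *Lmx1a*, *Zic1* and *Pax7*. *Lmx1a* had 290 normalized counts in that library against 412 and 425 in the other *Rdh10* KO libraries. The summed level of the list was 5652 to 6100 in WT and 5756 to 6691 in *Rdh10* KO, and the part of this tissue in the values of the *Msx* genes was not tested.

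Of 9 genes near the members, at 2.92 to 793 kb from the closest one, 1 decreased and 3 increased. Of all tested genes, 9.12% decreased and 10.3% increased, and whether the changes of these neighbors relate to the members' loci was not tested. *Stx18*, a syntaxin gene 214 kb from *Msx1*, fell by 0.47 on the log2 scale (limma adjusted p = 0.00363), and *Cytl1*, 80.7 kb from *Msx1*, did not pass the test. *Itga6*, an integrin gene 199 kb from *Dlx2*, rose from 1629 to 1752 normalized counts in WT to 2355 to 2674 in *Rdh10* KO (log2 fold change 0.55, limma adjusted p = 0.000218), while *Metap1d*, 2.92 kb from *Dlx1*, did not pass the test. *Kat7*, a histone acetyltransferase gene 128 kb from *Dlx4*, rose by 0.29 on the log2 scale and *Asns*, the asparagine synthetase gene 793 kb from *Dlx5*, by 1.04. *Nsg2*, listed with these genes but far from *Dlx3* and *Dlx4* on chromosome 11 in this annotation and not counted among the 9, rose by 0.59. The call of *Stx18* was lost without WT replicate 1 or 2 (limma adjusted p = 0.0604 and 0.0636), that of *Nsg2* without any 1 of the WT libraries (0.0513 to 0.0795), and that of *Kat7* without any library but *Rdh10* KO replicate 1 (0.0731 to 0.102), while those of *Itga6* and *Asns* held without each library.

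BMP signaling induces *Msx* genes, and its ligands, receptors, SMAD proteins, inhibitors and ID targets formed a list of 23 genes, all tested. Of these, 1 decreased, 5 increased and 17 did not pass the test, with a median log2 fold change of 0.17. *Bmp4*, the ligand best known for inducing *Msx1*, had 634 to 702 normalized counts in WT and 650 to 728 in *Rdh10* KO (log2 fold change 0.05, limma adjusted p = 0.760). *Bmp2*, another ligand, had 58.3, 52.3 and 49.8 normalized counts in the WT libraries and 73.8, 92.8 and 81.2 in the *Rdh10* KO ones (log2 fold change 0.62, limma adjusted p = 0.0512). All its *Rdh10* KO values were above the WT values, and both edgeR tests called it increased (adjusted p = 0.0396 and 0.0295), as did limma on genes with a mean above 10 (0.0343). The gene that decreased was *Id4*, which encodes an inhibitor of basic helix-loop-helix factors, from 1286, 1280 and 1101 normalized counts in the WT libraries to 455, 668 and 708 in the *Rdh10* KO libraries (log2 fold change -1.02, limma adjusted p = 0.000211). Of the 5 that increased, *Bmpr2* encodes a receptor (log2 fold change 0.37), *Smad9* a signal transducer (0.74) and *Smad7* an inhibitory SMAD (0.40). The other two were *Nog*, the BMP antagonist Noggin (0.56), and *Acvr1*, a receptor (0.36). *Id1*, *Id2* and *Id3*, the other ID genes of the list, had log2 fold changes of 0.29, 0.20 and -0.06 and did not pass the test in limma. *Id1* was called increased by both edgeR tests (adjusted p = 0.0202 and 0.0233), by DESeq2 (0.0268) and by limma with a pseudocount of 1 (0.0475), and *Id2* by limma without *Rdh10* KO replicate 3 (0.0400). The call of *Id4* was lost without WT replicate 1 (limma adjusted p = 0.0511), that of *Bmpr2* without WT replicate 1 or 2 (0.0771 and 0.0903) and that of *Smad9* without WT replicate 1 or 3 (0.0612 and 0.0550). Those of *Nog* (limma adjusted p = 0.101 to 0.171), *Acvr1* (0.0832 to 0.121) and *Smad7* (0.0542 to 0.0869) were each lost without any 1 of 5 libraries, the exception being *Rdh10* KO replicate 1 for *Nog* and *Acvr1* and *Rdh10* KO replicate 2 for *Smad7*.

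**Figure D4:**
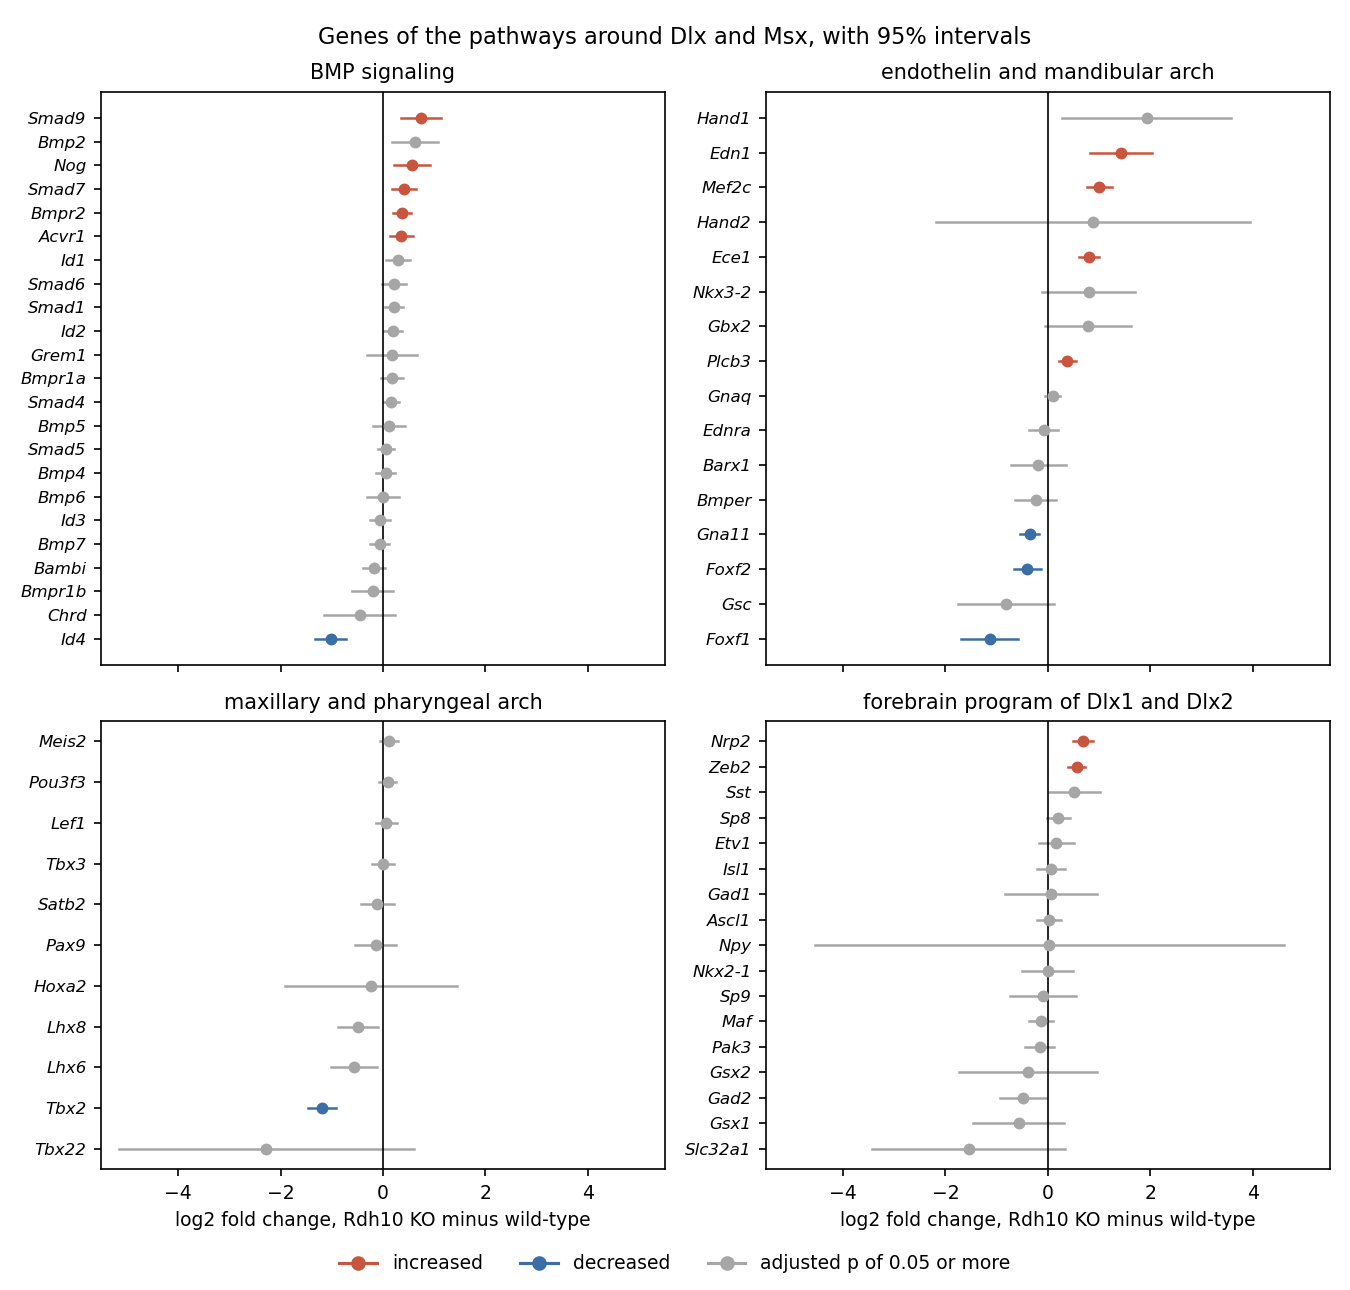
Log2 fold changes (horizontal axes, *Rdh10* KO minus WT) with 95% intervals from limma for tested genes of 4 lists around *Dlx* and *Msx*; red marks genes that increased, blue those that decreased, and gray those with an adjusted p of 0.05 or more. *Tbx2* at -1.19 is the lowest and *Edn1* at 1.43 the highest of the genes that passed the test.

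Endothelin signaling acts upstream of *Dlx5* and *Dlx6* in the lower jaw. Of 16 genes of this pathway and of its mandibular targets, 3 decreased and 4 increased, against 9.12% and 10.3% of all tested genes. The other 9 did not pass the test (median log2 fold change of the list 0.23). *Edn1*, the ligand endothelin 1, had 23.5, 22.3 and 32.9 normalized counts in the WT libraries and 55.1, 81.1 and 75.3 in the *Rdh10* KO ones (log2 fold change 1.43, limma adjusted p = 0.00269), a call that was lost without WT replicate 1 or without WT replicate 2 (limma adjusted p = 0.0558 and 0.0531). *Ece1*, which encodes the enzyme that activates it, rose from 1073 to 1248 normalized counts in WT to 1891 to 2304 in *Rdh10* KO (log2 fold change 0.80, limma adjusted p = 6.48e-05). *Mef2c*, a transcription factor gene of the same pathway, rose from 325 to 372 normalized counts to 605 to 801 (log2 fold change 1.002, limma adjusted p = 6.72e-05), and *Plcb3*, encoding a phospholipase of G protein signaling, by 0.38. The receptor gene *Ednra* had a log2 fold change of -0.08 and did not pass the test, and the G protein gene *Gna11* fell by 0.35. The forkhead genes *Foxf1* and *Foxf2* fell by 1.14 and 0.41. The call of *Plcb3* was lost without WT replicate 2 (limma adjusted p = 0.0640) and that of *Foxf1* without any WT library or *Rdh10* KO replicate 2 (0.0595 to 0.117). Those of *Gna11* (limma adjusted p = 0.0630 to 0.128) and *Foxf2* (0.0977 to 0.158) were each lost without any 1 of 5 libraries, the exception being *Rdh10* KO replicate 1 for *Gna11* and *Rdh10* KO replicate 3 for *Foxf2*. *Hand2*, the target of *Dlx5* and *Dlx6* that marks the lower jaw, was at 0 to 5.12 normalized counts in every library, and *Hand1*, a related factor, at 0.94 to 4.09 in WT and 5.73 to 11.8 in *Rdh10* KO. *Hand1* did not pass the test in limma (log2 fold change 1.92, limma adjusted p = 0.101) and was called increased by the edgeR likelihood ratio test (adjusted p = 0.0475).

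Of 11 partners of the *Dlx* and *Msx* genes in the maxillary and pharyngeal arch tissue, 1 decreased, against 9.12% of all tested genes. The other 10 did not pass the test with limma (median log2 fold change of the list -0.14), and 0 increased, also at an unadjusted p under 0.05 and by edgeR and DESeq2. At an unadjusted p under 0.05 in limma, 3 had decreased, *Tbx2*, *Lhx6* (log2 fold change -0.57) and *Lhx8* (-0.49), while edgeR and DESeq2 called *Tbx2* alone. *Tbx2*, a T-box repressor gene, fell from 1143, 1067 and 950 normalized counts in the WT libraries to 425, 396 and 577 in the *Rdh10* KO libraries (log2 fold change -1.19, limma adjusted p = 4.20e-05). Of 18 genes of the forebrain program downstream of or beside *Dlx1* and *Dlx2*, 0 decreased with limma and 2 increased. The shares of all tested genes were 9.12% and 10.3%. The other 16 did not pass the test (median log2 fold change of the list 0.02). At an unadjusted p under 0.05, 1 had decreased, and edgeR and DESeq2 called 0 decreased. *Nrp2*, a semaphorin receptor gene that *Dlx1* and *Dlx2* repress in interneurons, rose by 0.68 on the log2 scale (limma adjusted p = 0.000186), and *Zeb2*, a zinc finger repressor gene, by 0.56 (limma adjusted p = 0.000213). *Gad1* and *Gad2*, which encode the enzymes that make the transmitter GABA, had log2 fold changes of 0.06 and -0.48 and did not pass the test.

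Markers of the tissues that can hold *Dlx* and *Msx* transcripts were summed in each library. The shares of all tested genes to set beside the counts below are 9.12% decreased and 10.3% increased. Of 12 genes of cranial mesenchyme and neural crest, 1 increased, *Snai2* (log2 fold change 0.91), and their summed level was 13436 to 13885 normalized counts in WT and 13820 to 14213 in *Rdh10* KO. Of 10 genes of surface ectoderm, 1 decreased (*Cldn6*, -0.47) and 2 increased (*Tfap2a*, 0.64, and *Cdh1*, 0.30), with sums of 8347 to 8920 and 8210 to 9598. Of 9 forebrain genes, 0 passed the test with limma (1 at an unadjusted p under 0.05, 1 with edgeR, *Emx2*, and 0 with DESeq2), with sums of 7795 to 8333 in WT and 6787 to 9064 in *Rdh10* KO, and of 7 olfactory placode genes, *Ebf2* increased (0.67), with sums of 3935 to 4276 and 4376 to 4792. Optic vesicle genes were summed to 6911 to 7235 and 5982 to 8556, with 2 of 10 decreased (*Lhx2* and *Vax2*) and 3 increased (*Otx2*, *Rax* and *Six3*). Both edgeR tests also called *Vax1* decreased, whereas DESeq2 called *Vax2* alone decreased (*Lhx2* DESeq2 adjusted p = 0.0625). The same 3 genes were called increased by edgeR and DESeq2. Of 7 embryonic blood genes, 0 passed the test with limma (1 at an unadjusted p under 0.05, and 1, *Klf1*, with edgeR and DESeq2), although their sums ranged from 97870 to 131445 in WT and from 49551 to 151834 in *Rdh10* KO. Heart genes summed to 90.3 to 130 and 157 to 307, with 1 of 8 tested genes increased (*Actc1*). Without *Actc1* the sums were 52.3 to 77.8 and 58.8 to 69.5, and *Myl7*, an atrial myosin light chain gene, was lower in *Rdh10* KO (15.6 to 28.7 against 6.44 to 11.8 normalized counts) and called decreased by edgeR but not by limma. Limb bud genes summed to 617 to 753 and 479 to 625, of which *Pitx1* made up 94.7% to 96.7%, and *Pitx1* was the 1 of 3 tested genes that decreased. Without *Pitx1* the sums were 24.5 to 30.7 in WT and 17.9 to 31.8 in *Rdh10* KO. The lower sum in *Rdh10* KO thus rests on *Pitx1*, and whether the tissue held limb bud was not tested. No marker list as a whole was at 0 in either group, while the limb bud genes *Hoxd11*, *Hoxd12* and *Hoxd13* had at most 2.23 normalized counts. The heart genes *Nkx2-5*, *Nppa*, *Myl2* and *Myl3* had at most 3.07, and whether the tissue held heart was not tested. Among the marker calls, those of *Snai2*, *Tfap2a* and *Ebf2* held without each library, and the other 9 were lost without 2 to 6 of the libraries, taken singly. The part of these tissues in the values of *Msx1* and *Dlx2* was not tested.

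Likeness to each member was measured as the Pearson correlation of log2 values over the 6 libraries, among 15272 genes, which all share these libraries and their group difference. *Msx1* was followed most closely by *Tbcb*, a tubulin folding cofactor gene, and *Med11*, a Mediator subunit gene (r = 0.999 for both). *Msx2* was nearest to the integrin gene *Itgb5* (r = 0.9997) and the antisense transcript *RP24-259P13.2* (0.991). *Dlx2* was nearest to *Gm43951* (0.999) and *Lmo7* (0.992), and *Dlx1* to *Atoh8* (0.985) and *Elk3* (0.984). For *Dlx3* the nearest were *B4galt1* (0.993) and *Ptar1* (0.993), for *Dlx5* *Nup153* (0.991) and *Wdr38* (0.990), and for *Dlx6* *Ap1g1* (0.986) and *Abca9* (0.984). None of the genes so named was itself a member, and *Dlx4* was left out for its few reads. These are the highest of 15272 correlations over only 6 libraries. They were at least 0.984 for every member measured, also for those that did not pass the test, and shared regulation was not tested.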

How the data were processed

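RNA-seq was performed by the authors on 3 WT and 3 *Rdh10* KO libraries, made with a directional kit after poly(A) selection. Per the paper's methods and the submitters' processing notes, the authors aligned reads to mm10 with TopHat and named FPKM as the normalization, and the aligner's version is not given in the sources used here. The deposited signal is the authors' value per gene and library. It was assumed to be FPKM when the tests were set, but the deposited values equal whole reads divided by the median-of-ratios size factor of each library, in 100% of the values of all 6 libraries (within 0.0051 plus 2e-06 of the value), so they were treated as normalized counts. The table has 26437 genes and 1 line naming no gene, which was left out, and 26288 gene identifiers (99.4%) were found in GENCODE release 21.

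For genes with a mean above 0.5, log2(value + 0.1) was compared between the groups by limma 3.58.1 (R 4.3.3, intensity trend) and Benjamini–Hochberg adjustment. A log2 cut-off of 0.85 was counted separately. For ratios, the exact permutation test was two-sided. The members and the gene lists were chosen with earlier results of these data known. The text names all 8 members, *Rdh10*, the transcripts of their loci, neighboring genes that passed the test, up to 4 genes of each pathway list with the lowest adjusted p, and the 2 genes most like each member. Other genes, such as *Bmp2*, *Bmp4*, *Nog*, *Hand2*, *Gad1* and the markers, were named after their values were seen.

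Alternatives were pseudocounts of 1 and 0.01, no filter and a mean above 10, median scaling, quantile normalization, no intensity trend, a replicate block, DESeq2 1.42.0 and both edgeR 4.0.16 tests (quasi-likelihood, likelihood ratio) on recovered reads, and leaving out each library. The tests were tested on simulated data. Nothing states that the pools of a group came from separate litters, so p-values measure the spread between pools. Reads without molecular identifiers are not independent molecules, so the limit of 3 reads covers counting error only. Sequences came from GENCODE and RefSeq, and Python 3.11.15 with pandas 2.3.3, scipy 1.17.1 and matplotlib 3.10.9 was used. The ChIP-seq was not analysed here, and results for some genes and 1 sequence are not reported here.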

Additional observations from a re-analysis of the deposited data

How the results depend on the processing

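The decrease of *Msx1* held in all 17 alternatives, with log2 fold changes from -0.84 to -0.74 and adjusted p-values up to 0.0234 (limma, edgeR or DESeq2), and the count of decreased members stayed at 1. The count of increased members was 1 and became 0 in limma without the intensity trend. On leaving out 1 library it ranged from 0 (without WT replicate 2) to 2 (without *Rdh10* KO replicate 3, when *Dlx6* passed as well), and the count past the log2 cut-off was 0 throughout. The log2 fold change of *Dlx2* ranged from 0.55 to 0.82. That of *Dlx4* ranged from -0.25 to 0.80 on leaving out 1 library, and turned negative without *Rdh10* KO replicate 3. *Bmp4* (-0.0154) and *Gad1* (-0.0042) turned negative with median scaling. On leaving out 1 library, the log2 fold change of *Id3* ranged from -0.18 to 0.0098, that of *Ednra* from -0.19 to 0.10, that of *Gad1* from -0.19 to 0.465 and that of *Dlx6os1* from -0.0278 to 0.29, none passing the test. *Dlx4* has no adjusted p in DESeq2 and was not tested with a mean above 10. The *Dlx6* to *Dlx5* log2 ratio difference, 0.11 with all libraries, ranged from -0.0345 to 0.31 and turned negative without *Rdh10* KO replicate 2. *Ece1*, *Mef2c*, *Tbx2*, *Zeb2*, *Tfap2a* and *Ebf2* also passed the test in all 17 alternatives, whereas *Six3* missed it in 10 of them, *Rax*, *Pitx1* and *Acvr1* in 9 and *Kat7*, *Cdh1* and *Gdf7* in 8, and the other calls named in 1 to 7.

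Same-numbered WT and *Rdh10* KO replicates did not deviate together (r = -0.03, -0.03 and -0.07 over 15272 genes). No shared effect of the replicate number was seen, but the labels do not state whether same-numbered pools belong together, and these correlations cannot decide it. With the replicate block the counts of decreased and increased members were 1 and 1 (adjusted p in limma 0.00107 for *Msx1* and 0.00773 for *Dlx2*), and *Smad7* (0.0563), *Kat7* (0.0527), *Cdh1* (0.0859), *Pax7* (0.0505), *Gdf7* (0.0678), *Acvr1* (0.0791), *Foxf2* (0.0676), *Rax* (0.0524), *Six3* (0.0716) and *Pitx1* (0.112) no longer passed. Median scaling moved the median of all genes from 0.0036 to -0.06, and no member changed its call under it. Depth limits *Dlx4*, *Dlx1as*, *Dlx6os2* and *Hand2*, whose counts were low in every library.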
